A study of Mus musculus with 12 samples.

Results

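The genes described here are the classical cadherins, the Fat, Dachsous and Celsr cadherins and the non-clustered protocadherins of the mouse. They were chosen by symbol from the gene-level count table, as Cdh or Pcdh followed by a number (*Pcdh11x* included), *Fat1* to *Fat4*, *Dchs1*, *Dchs2* and *Celsr1* to *Celsr3*. Of 51490 rows, 44 symbols matched, and 40 of them had a count in at least 1 of the 12 samples and were kept as members, among 27161 genes with a count. *Cdh9*, *Cdh16*, *Cdh19* and *Cdh20* had no count in any sample. The filter on low counts left 27 members among the 15037 genes tested. The symbol rule used no measured value beyond the removal of rows without counts, but the members were chosen with earlier results of these data known.

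The samples were iMEPM cells, an immortalized line of mouse embryonic palatal mesenchyme derived from a male *Cdkn2a-/-* embryo, so that every group lacks *Cdkn2a*. A lentivirus had delivered either a scramble shRNA or an shRNA against *Srsf3*, which encodes an RNA-binding splicing factor, and cells were selected with puromycin and sorted for GFP. Each shRNA is represented by 1 stable line, so that the shRNA and the line cannot be told apart, and the control carries the vector as well. Cells were serum-starved and then kept without ligand (-PDGF-AA) or given PDGF-AA, a ligand of the receptor PDGFRα, at 10 ng/mL for 1 hr (+PDGF-AA), with 3 biological replicates in each of the groups scramble -PDGF-AA, shSrsf3 -PDGF-AA, scramble +PDGF-AA and shSrsf3 +PDGF-AA. The p-values measure the spread between replicate cultures of these lines.

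Library totals ranged from 30958966 to 76123359 counts, and levels are given as CPM, counts scaled to the library total with TMM factors. *Srsf3* itself was lower in the shSrsf3 cells, at 162 CPM ± 1.46 against 206 ± 6.59 (SD, n = 3) without ligand and at 165 ± 4.33 against 222 ± 8.08 with ligand. All 11 markers of palatal mesenchyme were detected and tested, at very unlike levels. *Col1a1* had group means from 17214 to 18235 CPM, while *Osr2* had 2.73 to 5.23 CPM and *Msx1* 0.719 to 1.7 CPM. The 10 markers of epithelium summed to between 0.778 and 1.27 CPM in every sample, with *Esrp1* at 0 throughout. Low mapping rates, as listed with the sequencing statistics, set apart 3 scramble libraries, replicates 1 and 2 without ligand and replicate 2 with ligand. Without them, scramble -PDGF-AA is 1 sample, which the fit assumes to vary like the other groups, so that the comparison without ligand then has no replicate check on the scramble side. In that fit 8 members were DE without ligand, with *Celsr3* in place of *Cdh26*, and the same 8 as with all libraries were DE with ligand, where 2 scramble samples remained. As in any bulk measurement, fewer cells that express a gene and less RNA per cell cannot be told apart.

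Cadherins are transmembrane proteins that join neighboring cells through calcium-dependent contacts of their extracellular repeats. Classical cadherins bind p120 and β-catenin with their cytoplasmic tails and so connect the contact to actin. Type I members such as E-cadherin and N-cadherin form strong adhesive junctions, and type II members are more restricted in where they are expressed. Fat and Dachsous cadherins are very large partners that bind each other between cells and, with the Celsr proteins, orient cells within a tissue, while protocadherins adhere weakly and are best known from the nervous system. In the secondary palate, mesenchyme fills the shelves beneath an epithelium, and the switch between epithelial E-cadherin and mesenchymal N-cadherin and cadherin-11 is a textbook mark of the mesenchymal state.

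When levels were compared per length (CPM per kb of the canonical transcript, mean of the 4 group means), the mesenchymal cadherin *Cdh11* led the members at 150.5 CPM per kb, or 41.9% of the summed level of all 40. *Fat1*, a giant cadherin that acts on actin and polarity, followed at 85.7 CPM per kb and *Cdh2*, which encodes N-cadherin, at 39.6. These 3 members and the next in order did not overlap with their neighbor in any of the 12 samples, since *Cdh11* ranged from 123.5 to 171.7 CPM per kb, *Fat1* from 67.2 to 100.1 and *Cdh2* from 32.0 to 46.9. The next 4 members were the protocadherins *Pcdh19* (15.6 CPM per kb), *Pcdh7* (15.3) and *Pcdh18* (12.5), and *Cdh13* (13.7), which encodes the GPI-anchored T-cadherin. Their ranges overlapped, with *Pcdh19* above *Pcdh7* in 6 of 12 samples, so that the order among them was not settled. *Fat4* (6.15), *Pcdh9* (6.0) and *Dchs1* (4.49) completed the 10 highest members, and their ranges overlapped as well. At the other end, *Cdh1*, which encodes E-cadherin, lay at 0.315 CPM per kb, and *Cdh15*, the muscle M-cadherin, at 0.0384.

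**Figure D1:**
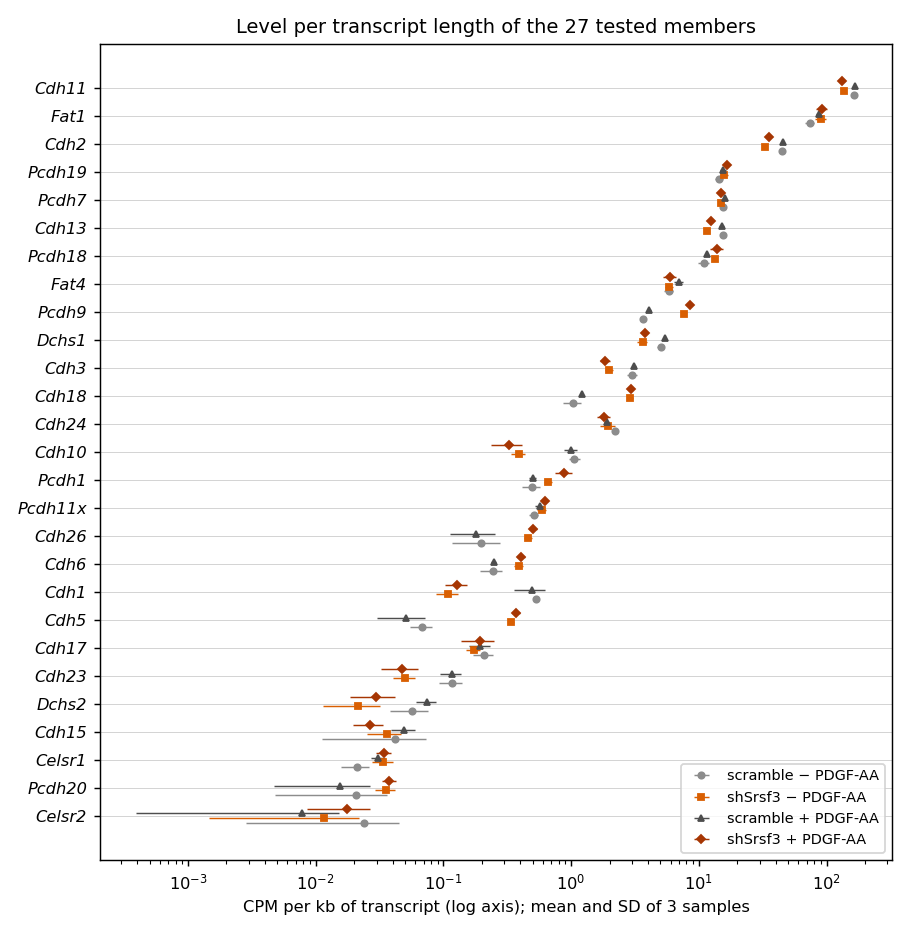
Level of each of the 27 tested members in CPM per kb of canonical transcript (log axis), as the mean and SD of 3 samples in each of the 4 groups. The bars are cut short on both sides where the SD exceeds the mean, for *Celsr2* in scramble +PDGF-AA, so they understate its SD there. Members span from *Cdh11*, at 132.7 to 167.6 CPM per kb, down to *Celsr2*, and the symbols of shSrsf3 and scramble cells separate for *Cdh1*, *Cdh5*, *Cdh10*, *Cdh18*, *Cdh26* and *Pcdh9*.

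The 13 members that did not pass the filter were close to undetected. *Cdh4*, *Cdh7*, *Cdh8*, *Cdh12*, *Fat3* and *Pcdh8* had at most 2 counts in any sample, *Pcdh10*, *Pcdh12*, *Pcdh15*, *Pcdh17* and *Cdh22* at most 8, *Fat2* at most 12 and *Celsr3* at most 21. They were not compared in the tests below, and under the alternative settings that fitted all 40 members (DESeq2 and no filter) none of them was called between the shRNAs. The filter asked for about 0.198 CPM in at least 3 samples, and 21 of the 27 tested members were above this value in all 12 samples. The other 6 were above it in 5 to 11 samples, and 2 of these, *Cdh5* and *Dchs2*, are among the genes named as DE below.

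To ask which members differed between the *Srsf3* shRNA and the scramble shRNA, the groups were compared without ligand and, in separate libraries, with ligand. A member was called changed at an adjusted p of 0.05 or less in edgeR's quasi-likelihood test over all 15037 genes, and DE (differentially expressed) if it also differed at least 2-fold. Without ligand, 4 of 27 members (14.8%) were DE and higher in shSrsf3 cells, where 2.99% of all tested genes were, and 4 (14.8%) were DE and lower, where 2.76% of all tested genes were. With ligand the same 8 genes were DE in the same directions, again 4 higher and 4 lower, beside 2.85% and 2.57% of all tested genes. Over all tested genes, 2.02% were DE and higher in both comparisons and 1.86% DE and lower in both. The higher genes were *Cdh5*, *Cdh18*, *Cdh26* and *Pcdh9*, and the lower genes were *Cdh1*, *Cdh10*, *Cdh23* and *Dchs2*.

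At the adjusted p alone, 8 members were higher and 9 lower without ligand (29.6% and 33.3%), beside 22.2% and 23.7% of all tested genes. With ligand, 7 were higher and 10 lower (25.9% and 37.0%), beside 20.3% and 20.7%. The median log2 fold change over the 27 members was -0.07 without ligand and 0.01 with ligand, next to -0.02 and -0.01 over all tested genes, so that the members had no common direction. The median size of the log2 fold change was 0.48 and 0.73 for the members, against 0.20 and 0.19 for all tested genes. These medians were not matched for level. The members' median with ligand includes large values with wide errors that did not pass the adjusted p. They were *Celsr2* (1.16 ± 0.98), *Pcdh20* (1.25 ± 0.53) and *Cdh15* (-0.86 ± 0.51), all with few counts. In total, 16 members passed the adjusted p in both comparisons, all 16 in the same direction (7 higher and 9 lower, or 25.9% and 33.3%, beside 16.7% and 16.9% of all tested genes), *Fat1* passed without ligand only, *Pcdh7* with ligand only, and 9 passed in neither. Across the 27 members the fitted log2 fold changes of the pair of comparisons, which share no library, had a Pearson r of 0.906 and a Spearman rho of 0.863 as a description over genes, which are not independent replicates.

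**Figure D2:**
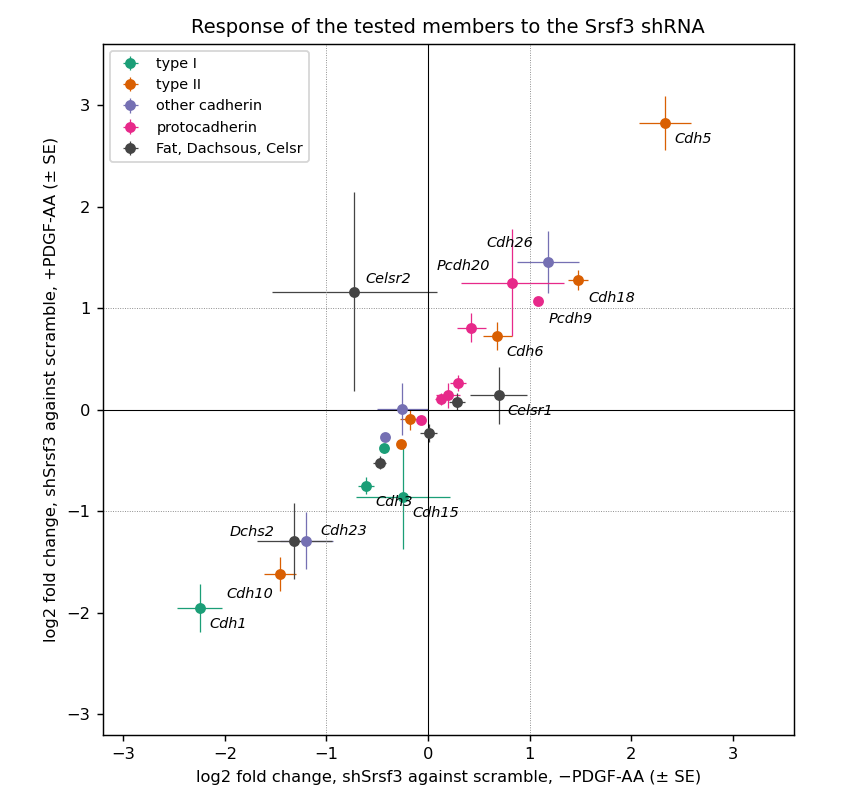
Log2 fold change of each tested member between shSrsf3 and scramble cells without ligand (horizontal axis) and with ligand (vertical axis), with standard errors as bars and colors for the classes of members. Dotted lines mark a 2-fold difference, and the 8 DE genes lie beyond both lines in the lower left and upper right, while *Celsr2* has a wide error and opposite signs.

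Among the type I classical cadherins, which form the strong junctions, all 3 members that changed were lower in shSrsf3 cells, and *Cdh1* fell the most. *Cdh1* encodes the epithelial E-cadherin and lies at chr8:107329941-107396880 (GRCm39, plus strand). Without ligand it was measured at 2.34, 2.39 and 2.35 CPM in scramble replicates 1 to 3 and at 0.544, 0.532 and 0.376 CPM in shSrsf3 replicates 1 to 3. With ligand the scramble samples held 1.84, 2.85 and 1.81 CPM and the shSrsf3 samples 0.454, 0.557 and 0.676 CPM. The groups did not overlap in either condition, and scramble +PDGF-AA replicate 2 was the highest of all 12 samples. The fold change was 4.74-fold lower without ligand (log2 fold change -2.24 ± 0.22 SE, edgeR adjusted p = 2.65e-06) and 3.86-fold lower with ligand (-1.95 ± 0.24, adjusted p = 1.80e-05). This concerned a gene read at low depth, with between 14 and 161 counts per sample. Of the other epithelial markers, *Epcam* and *Esrp2* could be tested and passed the adjusted p in neither comparison (log2 fold changes of -0.22 and -0.23 without ligand and of -0.44 and 0.20 with ligand), and the remaining 8 of the 10 did not pass the filter.

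*Cdh2*, the N-cadherin gene of mesenchymal cells, was the most abundant type I member. Its scramble samples held 228, 222 and 206 CPM and its shSrsf3 samples 164, 158 and 166 CPM without ligand, and 222, 222 and 231 CPM against 170, 172 and 176 CPM with ligand. The shSrsf3 samples all lay below the scramble samples, and *Cdh2* was 1.35-fold lower without ligand (log2 fold change -0.43 ± 0.04, adjusted p = 1.65e-06) and 1.30-fold lower with ligand (-0.38 ± 0.04, adjusted p = 5.49e-06). *Cdh3* encodes P-cadherin, which is known from basal epithelia and also from some mesenchyme. It was measured at 12.8, 14.6 and 12.6 CPM against 8.77, 8.14 and 9.48 CPM without ligand and at 13.3, 14.3 and 13.8 CPM against 8.87, 8.27 and 7.47 CPM with ligand. These groups also did not overlap, and *Cdh3* was 1.52-fold and 1.68-fold lower (-0.61 ± 0.08, adjusted p = 3.12e-05, and -0.75 ± 0.08, adjusted p = 6.88e-06). *Cdh3* and *Cdh1* are neighbors on chromosome 8, separated by 46.0 kb in GRCm39. *Cdh15*, the M-cadherin of muscle, had 3 to 19 counts per sample and did not pass the adjusted p (-0.25 ± 0.46 without ligand and -0.86 ± 0.51 with ligand).

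Of the 6 tested type II classical cadherins, *Cdh5*, *Cdh6* and *Cdh18* were higher, *Cdh10* and *Cdh11* were lower, and *Cdh24* passed the adjusted p in neither condition. *Cdh5* encodes VE-cadherin, the junctional cadherin of endothelium, at chr8:104828231-104871143 (GRCm39, plus strand). The scramble samples had 11, 14 and 13 counts without ligand and 12, 7 and 19 counts with ligand, and the shSrsf3 samples had 110, 85 and 52 and then 52, 47 and 50 counts. Scaled to library size, these were 0.286, 0.322 and 0.215 CPM against 1.42, 1.29 and 1.4 CPM without ligand and 0.199, 0.124 and 0.294 CPM against 1.39, 1.46 and 1.61 CPM with ligand. All 6 shSrsf3 samples were above all 6 scramble samples, by 5.04-fold without ligand (2.33 ± 0.26, adjusted p = 8.23e-06) and 7.05-fold with ligand (2.82 ± 0.27, adjusted p = 1.77e-06), the largest fold changes among the tested members in both comparisons.

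The other markers of endothelium moved in both directions, 1 higher and 2 lower of the 4 tested in each comparison. Of the 7 on the list, *Tie1* and *Cldn5* had no count in any sample and *Emcn* did not pass the filter. *Kdr*, which encodes a VEGF receptor, rose by 1.24 ± 0.29 and 0.91 ± 0.29 on the log2 scale (adjusted p = 0.00354 and 0.0210). *Erg*, an endothelial transcription factor, was lower (-2.85 ± 0.21 and -3.01 ± 0.24, adjusted p = 1.36e-07 and 3.32e-07), and *Tek*, a receptor for angiopoietins, was lower (-0.61 ± 0.06 and -0.84 ± 0.06, adjusted p = 3.33e-06 and 2.25e-07). *Pecam1* passed in neither comparison. The summed level of the list was lower in shSrsf3 cells, at 21.3 to 22.2 CPM against 33.2 to 36.1 CPM without ligand and 17.9 to 21.3 CPM against 33.8 to 37.4 CPM with ligand, most of it from *Tek*, and its part in the *Cdh5* result was not tested.

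*Cdh18* and *Cdh10*, both best known from neurons, moved in opposite directions. *Cdh18*, at chr15:22549108-23474504 (GRCm39, plus strand), was measured at 2.49, 2.64 and 3.33 CPM in scramble samples and at 8.26, 7.52 and 8.08 CPM in shSrsf3 samples without ligand. With ligand it was at 3.34, 3.26 and 3.38 CPM against 8.34, 8.12 and 7.69 CPM. The shSrsf3 samples were all at more than the highest scramble sample, and the gene was 2.78-fold higher without ligand (1.48 ± 0.10, adjusted p = 5.85e-08) and 2.42-fold higher with ligand (1.27 ± 0.10, adjusted p = 2.34e-07). *Cdh10*, at chr15:18818713-19016388 (GRCm39, plus strand), lies on the same chromosome, 3.53 Mb before *Cdh18*. It was measured at 6.08, 5.24 and 6.38 CPM against 2.41, 1.85 and 2.20 CPM without ligand and at 5.83, 4.78 and 5.94 CPM against 1.5, 1.55 and 2.38 CPM with ligand. Here all shSrsf3 samples were the lower ones, by 2.74-fold (-1.45 ± 0.16, adjusted p = 5.68e-06) and 3.07-fold (-1.62 ± 0.17, adjusted p = 4.73e-06). Per length, *Cdh10* and *Cdh18* were about level in scramble cells (1.06 and 1.03 CPM per kb without ligand), and in shSrsf3 cells they stood at 0.387 and 2.90 CPM per kb.

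*Cdh11*, the cadherin of mesenchyme and osteoblasts that led all members in level, was lower by a small and regular amount. It was at 923, 933 and 934 CPM against 774, 768 and 781 CPM without ligand and at 942, 970 and 928 CPM against 777, 774 and 698 CPM with ligand. The groups were far from overlapping relative to their spread, and the differences were 1.20-fold (-0.26 ± 0.04, adjusted p = 9.83e-05) and 1.26-fold (-0.34 ± 0.04, adjusted p = 1.20e-05). *Cdh6*, the kidney cadherin that is also made by neural crest cells, had group means of 1.98 and 3.17 CPM without ligand and 2.02 and 3.33 CPM with ligand in scramble and shSrsf3 cells, and rose 1.60-fold and 1.65-fold (adjusted p = 0.00145 and 0.00103).

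**Figure D3:**
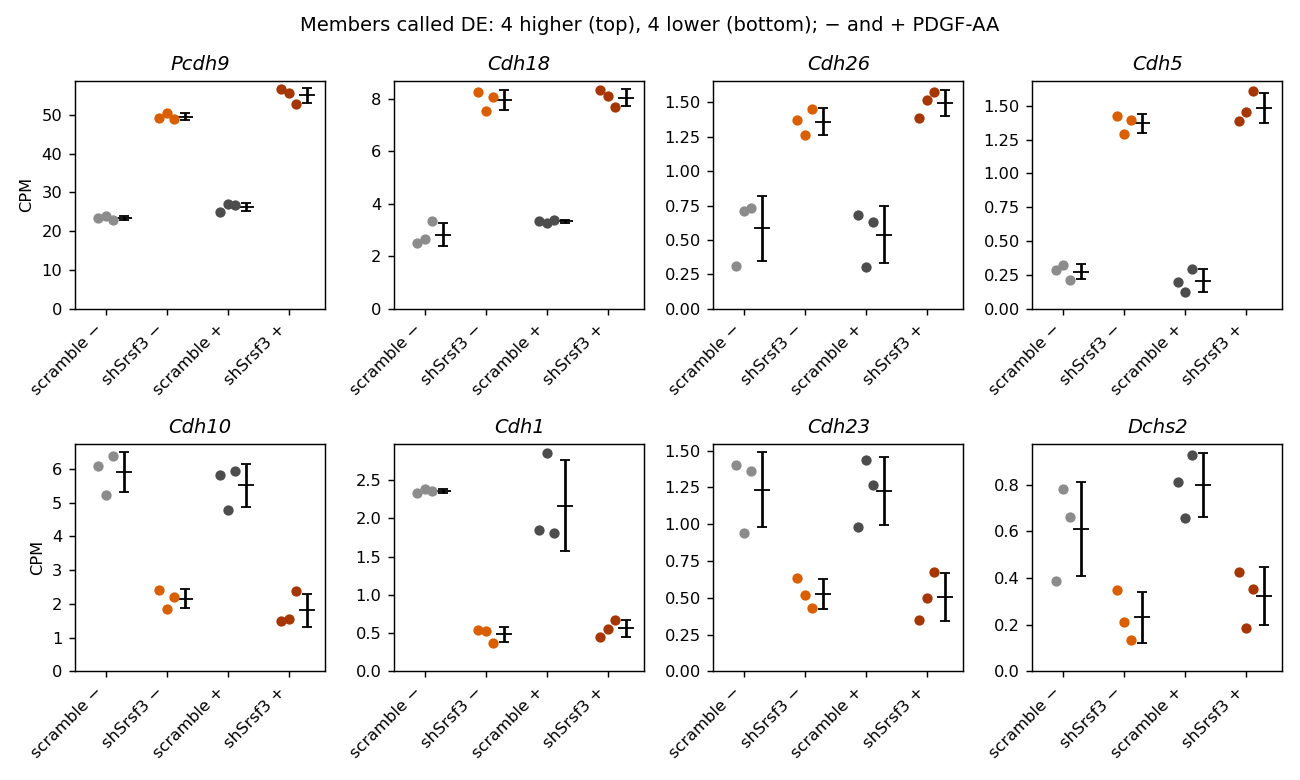
Level in CPM of the 8 DE members in each of the 12 samples, by shRNA and ligand (− or + PDGF-AA), with the mean and SD of 3 samples as a bar beside the points. The top row holds the 4 genes that were higher in shSrsf3 cells and the bottom row the 4 that were lower, and in every panel the shSrsf3 samples lie apart from the scramble samples of the same condition.

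The remaining numbered Cdh genes, which encode cadherins of other structure, were *Cdh13*, *Cdh17*, *Cdh23* and *Cdh26*. *Cdh26*, at chr2:178072324-178129159 (GRCm39, plus strand), encodes a cadherin of mucosal epithelium, and it was higher in shSrsf3 cells. Its samples held 0.312, 0.713 and 0.729 CPM against 1.37, 1.26 and 1.45 CPM without ligand and 0.681, 0.301 and 0.634 CPM against 1.39, 1.52 and 1.58 CPM with ligand. The shSrsf3 samples were close to each other and the scramble samples scattered, with 12 and 17 counts in the lowest of them. It was 2.27-fold higher without ligand (1.18 ± 0.30, adjusted p = 0.00590) and 2.75-fold higher with ligand (1.46 ± 0.31, adjusted p = 0.00175). Without scramble -PDGF-AA replicate 1, the difference without ligand was 0.91 on the log2 scale (adjusted p = 0.0188), which is less than 2-fold.

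*Cdh23*, at chr10:60138527-60532269 (GRCm39, minus strand), encodes the cadherin of the tip links of inner ear hair cells, and it was lower. The scramble samples had 54, 41 and 82 counts and the shSrsf3 samples 49, 34 and 16 without ligand, which at their depths made 1.4, 0.943 and 1.36 CPM against 0.635, 0.516 and 0.430 CPM. With ligand, 0.980, 1.43 and 1.27 CPM stood against 0.347, 0.496 and 0.676 CPM. The groups did not overlap once scaled to depth, at 2.30-fold (-1.20 ± 0.26, adjusted p = 0.00206) and 2.44-fold (-1.29 ± 0.28, adjusted p = 0.00220) lower. Its tip link partner *Pcdh15* had at most 4 counts in a sample and was not tested. *Cdh13* fell from 61.1, 63.4 and 58.3 CPM to 46.0, 44.3 and 46.1 CPM without ligand and from 56.7, 62.4 and 58.4 CPM to 49.4, 48.7 and 48.8 CPM with ligand. The separation was complete in both conditions, with log2 fold changes of -0.42 ± 0.04 (adjusted p = 4.56e-06) and -0.27 ± 0.04 (adjusted p = 0.000250). *Cdh17*, the liver-intestine cadherin, had 16 to 53 counts per sample and passed in neither comparison.

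Among the protocadherins, 7 of 12 members were tested. *Pcdh9*, a δ1-protocadherin at chr14:93250846-94128152 (GRCm39, minus strand), was the only DE member among the 10 highest per length. It was measured at 23.4, 23.9 and 22.7 CPM in scramble samples and at 49.2, 50.5 and 48.9 CPM in shSrsf3 samples without ligand. With ligand it was at 25, 26.9 and 26.8 CPM against 56.6, 55.6 and 52.9 CPM. The replicates were tight and the groups far apart, and the difference was 2.12-fold without ligand (1.09 ± 0.04, adjusted p = 4.07e-10) and 2.10-fold with ligand (1.07 ± 0.04, adjusted p = 4.78e-10), the smallest adjusted p-values among the members.

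*Pcdh7*, another δ1-protocadherin, was at 141.5 CPM ± 3.72 in scramble and 134.7 ± 4.14 in shSrsf3 samples without ligand (-0.07 ± 0.04, adjusted p = 0.147) and at 146.4 ± 2.36 and 136.1 ± 5.19 with ligand (-0.11 ± 0.04, adjusted p = 0.0428). Its call with ligand was lost in 11 of 19 alternative settings, 7 of which left out a single library. *Pcdh1* rose in both conditions from low levels, 1.35-fold without ligand (adjusted p = 0.0290, lost in 6 of 19 alternative settings) and 1.75-fold with ligand (adjusted p = 0.000563). Of the δ2-protocadherins, *Pcdh18* was higher, at 52.2, 56.6 and 63.6 CPM against 72.0, 67.4 and 72.0 CPM without ligand (0.29 ± 0.08, adjusted p = 0.00807) and at 59.6, 61.9 and 61.0 CPM against 79.6, 75.8 and 63.5 CPM with ligand (0.26 ± 0.08, adjusted p = 0.0160). Its groups were close. Without the 3 libraries of low mapping rate, which leaves 1 scramble sample, the difference without ligand was 0.14 (adjusted p = 0.256), and with ligand the call was lost without scramble +PDGF-AA replicate 1 (adjusted p = 0.0512), without shSrsf3 +PDGF-AA replicate 1 (0.0897) and without shSrsf3 +PDGF-AA replicate 2 (0.0647). *Pcdh19*, the gene of an X-linked epilepsy, did not pass the adjusted p (0.13 ± 0.06, adjusted p = 0.0902, and 0.10 ± 0.06, adjusted p = 0.200), and neither did *Pcdh11x*. *Pcdh20*, with 3 to 38 counts per sample, was at 0.494, 0.115 and 0.182 CPM against 0.492, 0.364 and 0.510 CPM without ligand (0.83 ± 0.51, adjusted p = 0.200) and at 0.332, 0.0532 and 0.216 CPM against 0.508, 0.526 and 0.418 CPM with ligand (1.25 ± 0.53, adjusted p = 0.0747). The groups overlapped without ligand and not with ligand. *Pcdh20* became DE with ligand under no filter, under the replicate block and when scramble replicate 1 of either condition was left out, and it became DE without ligand when scramble -PDGF-AA replicate 1 was left out.

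In the Fat and Dachsous group, both Dachsous members were lower. *Dchs1* is the ligand of *Fat4*, and it fell from 53.0, 51.3 and 57.9 CPM to 37.4, 36.6 and 43.0 CPM without ligand and from 58.4, 59.0 and 59.2 CPM to 42.5, 42.0 and 38.7 CPM with ligand. No sample of shSrsf3 cells reached a scramble sample, and the differences were 1.39-fold (-0.48 ± 0.06, adjusted p = 3.43e-05) and 1.43-fold (-0.52 ± 0.06, adjusted p = 1.81e-05). *Dchs2*, its low-level paralog at chr3:83034897-83264516 (GRCm39, plus strand), had 15, 34 and 40 counts against 27, 14 and 5 counts without ligand and 49, 37 and 60 counts against 16, 6 and 11 counts with ligand. Scaled to depth, this was 0.390, 0.782 and 0.663 CPM against 0.350, 0.213 and 0.134 CPM, where the groups nearly touched, and 0.814, 0.656 and 0.927 CPM against 0.428, 0.186 and 0.354 CPM. *Dchs2* was 2.49-fold (-1.32 ± 0.37, adjusted p = 0.00997) and 2.45-fold (-1.29 ± 0.37, adjusted p = 0.0131) lower, and without shSrsf3 +PDGF-AA replicate 2 its call with ligand was lost (-1.02, adjusted p = 0.0651).

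For the Fat members the differences were small. *Fat1* was at 1172, 1007 and 1148 CPM against 1316, 1250 and 1500 CPM without ligand and at 1260, 1273 and 1371 CPM against 1477, 1432 and 1219 CPM with ligand. It was higher without ligand (0.29 ± 0.08, adjusted p = 0.00956), where the groups did not overlap, and the groups overlapped with ligand (0.08 ± 0.08, adjusted p = 0.463). The former call was lost without shSrsf3 -PDGF-AA replicate 3 (0.21, adjusted p = 0.0515). It was also lost without the 3 libraries of low mapping rate (0.23), which leaves 1 scramble sample without ligand. The difference between both effects did not pass the test of the interaction (-0.21 ± 0.11, adjusted p = 0.874), but it passed with no filter on low counts. *Fat4* was at 95.3, 86.0 and 100.4 CPM against 91.2, 89.7 and 102.1 CPM without ligand and at 102.6, 121.1 and 113.2 CPM against 103.8, 101.4 and 82.8 CPM with ligand. It did not pass the adjusted p in either condition (0.01 ± 0.09, adjusted p = 0.969, and -0.23 ± 0.09, adjusted p = 0.0550), and its call with ligand was gained in DESeq2 (-0.22, adjusted p = 0.0314), with no filter on low counts (-0.24, adjusted p = 5.84e-05), without scramble -PDGF-AA replicate 3 (-0.22, adjusted p = 0.0434), without scramble +PDGF-AA replicate 1 (-0.29, adjusted p = 0.0303) and without shSrsf3 +PDGF-AA replicate 1 (-0.28, adjusted p = 0.0410). The Celsr proteins are the vertebrate Flamingo cadherins of planar polarity, and *Celsr1* (7 to 36 counts per sample) and *Celsr2* (0 to 20 counts) passed in neither comparison. For *Celsr1* the log2 fold change was 0.70 ± 0.28 without ligand (adjusted p = 0.0604) and 0.14 ± 0.28 with ligand (adjusted p = 0.749), and for *Celsr2* it was -0.73 ± 0.81 (adjusted p = 0.496) and 1.16 ± 0.98 (adjusted p = 0.378).

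Because a few members made up most of each class, levels per length were summed to see how the make-up differed. The 15 type I and type II members with counts summed to 217 CPM per kb ± 1.64 in scramble and 178 ± 2.60 in shSrsf3 samples without ligand, a ratio of 0.820, and to 221 ± 3.09 and 176 ± 7.31 with ligand, a ratio of 0.793. The groups did not overlap in either condition, and the two-sided exact permutation test gave p = 0.1 in each, the smallest value that 3 samples against 3 allow (p = 0.171 after adjustment over 12 such tests). *Cdh11* held 75.8% ± 0.872 of this sum in scramble and 76.9% ± 0.499 in shSrsf3 samples without ligand, and *Cdh2* held 20.4% ± 0.916 and 18.5% ± 0.232. The share of *Cdh18* was 0.474% ± 0.0784 in scramble and 1.63% ± 0.0619 in shSrsf3 samples, that of *Cdh3* was 1.38% ± 0.108 and 1.11% ± 0.0685, and that of *Cdh10* was 0.489% ± 0.0522 and 0.217% ± 0.0263. The DE members of the class were thus minor parts of a sum carried by *Cdh11* and *Cdh2*.

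The 12 protocadherins summed to 45.6 CPM per kb ± 1.65 in scramble and 53.0 ± 1.95 in shSrsf3 samples without ligand. With ligand they summed to 48.3 ± 1.19 and 55.6 ± 2.89. The groups did not overlap in either condition (exact permutation p = 0.1, the smallest possible, and 0.171 after adjustment). *Pcdh9* made up 7.99% ± 0.487 of the sum in scramble and 14.6% ± 0.749 in shSrsf3 samples without ligand, while the share of *Pcdh7* was 34.1% ± 1.39 and 27.9% ± 0.169. The 6 Fat and Dachsous members summed to 84.9 CPM per kb ± 6.55 in scramble and 99.9 ± 9.39 in shSrsf3 samples without ligand. This was a ratio of 1.18 with no overlap (exact permutation p = 0.1, the smallest possible, and 0.171 after adjustment). With ligand they summed to 99.3 ± 4.24 and 101.6 ± 10.1, a ratio of 1.02 with overlapping groups (exact permutation p = 0.8). Between scramble cells with and without ligand, this sum had a ratio of 1.17 and the classical sum a ratio of 1.02. Neither of these overlapped (exact permutation p = 0.1 and adjusted p = 0.171 in each), so this outcome was not particular to the shRNA. *Dchs1* was 5.93% ± 0.346 of the sum in scramble and 3.63% ± 0.0478 in shSrsf3 samples without ligand and 5.52% ± 0.200 and 3.77% ± 0.194 with ligand. *Fat1* was 87.1% ± 0.570 and 90.5% ± 0.191 without ligand and 87.4% ± 0.640 and 90.3% ± 0.0766 with ligand.

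**Figure D4:**
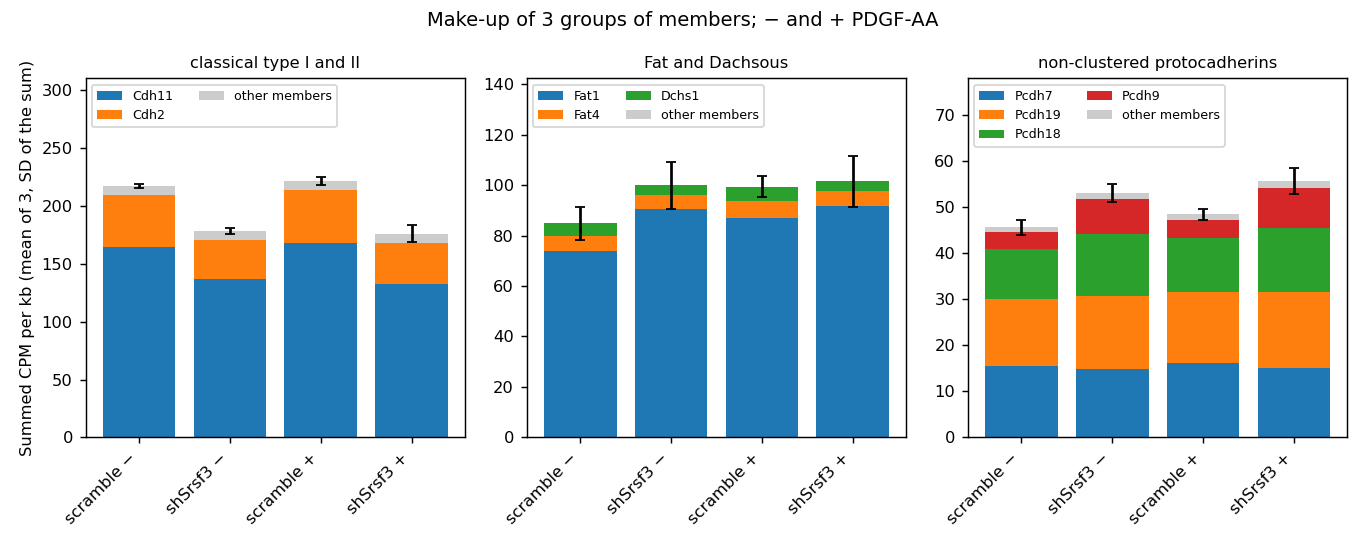
Summed level per transcript length (CPM per kb) of the classical type I and II cadherins, the Fat and Dachsous cadherins and the non-clustered protocadherins in the 4 groups, as the mean of 3 samples, stacked by member, with the SD of the sum as the error bar. The classical sum is lower in shSrsf3 cells, at 178 and 176 against 217 and 221 CPM per kb, and the red *Pcdh9* part of the protocadherin sum is larger.

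The DE members were spread over the genome. The 8 genes lay on 6 chromosomes, with *Cdh1* and *Cdh5* on chromosome 8 and *Cdh10* and *Cdh18* on chromosome 15, and they spanned 42.9 kb (*Cdh5*) to 925 kb (*Cdh18*). Apart from *Cdh1* and *Cdh26* they overlap other annotated genes, from 1 gene of the opposite strand for *Cdh10* to 5 of the same and 2 of the opposite strand for *Pcdh9*. The libraries were stranded, and the strand setting of the quantification is not given in the sources used here, so that reads of overlapping genes may have been split. The overlaps were counted over whole gene spans, introns included. On the transcript strand, no member shared more than 4.32% of the 31-base words of its transcripts with another gene, and opposite strands were not compared. The 250 bases before the annotated start could be read for 29 of the 44 symbols from RefSeq promoters (GRCm38.p6, a build that differs from that of the gene positions above), and *Cdh1* and *Cdh5* were not among them. Both strands of these windows were searched for CACCTG, the E-box letters that Snail and ZEB repressors are known to bind in *Cdh1*. They were found in 4 of the 29 genes (13.8%), *Fat1*, *Celsr2*, *Cdh7* and *Pcdh15*, against 17.2% of 32851 promoter windows of the same length, and in none of *Pcdh9*, *Cdh18*, *Cdh10*, *Cdh26*, *Cdh23* and *Dchs2*. The letters GGGCGG, a GC box, were found in 11 of the 29 genes (37.9%) against 32.7% of all windows, and among the DE genes in *Dchs2*, which held 3. For these shares a gene was counted if any of its windows matched, with several windows for *Cdh7*, while the share of all windows counts single windows. The shares are therefore not of like units. No match says only that these letters are not in the window, and whether these starts are used in iMEPM cells was not tested.

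The windows of 4 DE members are printed because their base content differed widely. *Cdh10* was lower in shSrsf3 cells and the others were higher. By their coordinates the *Cdh10* and *Cdh18* windows fall inside the gene spans given above, so they lie before internal annotated starts. The *Cdh10* window is near the start of its span and the *Cdh18* window well inside. Spans and windows are from different builds. The 4 windows run from 5′ to 3′ on the strand of the gene and end at the base before the annotated start. Capitals mark CG dinucleotides.
*Cdh10* (lower in shSrsf3 cells, chr15:18820079-18820328, plus strand): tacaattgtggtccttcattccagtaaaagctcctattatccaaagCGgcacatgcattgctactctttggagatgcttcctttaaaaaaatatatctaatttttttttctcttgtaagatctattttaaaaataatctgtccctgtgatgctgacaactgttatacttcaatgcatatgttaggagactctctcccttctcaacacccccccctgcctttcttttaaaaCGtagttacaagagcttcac
*Cdh18* (higher, chr15:23036213-23036462, plus strand): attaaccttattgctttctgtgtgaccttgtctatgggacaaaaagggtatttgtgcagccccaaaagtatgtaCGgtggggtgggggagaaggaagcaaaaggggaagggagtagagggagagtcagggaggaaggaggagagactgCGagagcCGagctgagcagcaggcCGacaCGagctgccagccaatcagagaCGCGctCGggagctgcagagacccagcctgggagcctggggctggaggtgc
*Pcdh9* (higher, chr14:93890680-93890929, minus strand, the upstream of its pair of starts): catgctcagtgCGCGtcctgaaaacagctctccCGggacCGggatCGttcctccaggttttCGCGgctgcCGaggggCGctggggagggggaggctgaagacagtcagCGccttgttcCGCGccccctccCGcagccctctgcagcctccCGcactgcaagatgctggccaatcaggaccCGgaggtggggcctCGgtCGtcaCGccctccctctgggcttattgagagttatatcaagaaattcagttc
*Cdh26* (higher, chr2:178430265-178430514, plus strand): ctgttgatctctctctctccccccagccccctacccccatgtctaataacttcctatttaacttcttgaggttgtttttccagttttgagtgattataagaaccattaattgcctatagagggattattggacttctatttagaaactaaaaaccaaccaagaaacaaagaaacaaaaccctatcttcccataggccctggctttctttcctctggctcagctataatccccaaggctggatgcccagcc
*Cdh26* held 0 CG dinucleotides, as did 7.87% of all windows, *Cdh10* held 2, *Cdh18* held 8 and *Pcdh9* held 18, and the median of all windows was 6. Their GC content was 42.8%, 36.8%, 58.0% and 63.6%, against a median of 52.4%. At least 18 were found in 21.7% of all windows. *Dchs2*, which was lower, had 22 CG dinucleotides, a number that 14.8% of all windows reached. CG-rich and CG-poor windows thus occurred among genes that were higher and among genes that were lower.

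To see whether the ligand moved the members, +PDGF-AA was compared with -PDGF-AA for each shRNA. These comparisons use the same libraries as those above. In scramble cells 1 of 27 members was higher and 0 were lower, beside 2.00% and 2.04% of all tested genes. The gene was *Pcdh9*, whose scramble samples had 23.4, 23.9 and 22.7 CPM without and 25, 26.9 and 26.8 CPM with ligand, a 1.12-fold difference (0.17 ± 0.04, adjusted p = 0.0431). All 3 samples with ligand were above all 3 without, but the call was lost in 9 of 19 alternative settings, 7 of which left out a single library, and the adjusted p ranged from 0.0205 to 0.174 over the settings. DESeq2 called 3 members here, *Pcdh9*, *Fat1* and *Fat4*. In edgeR, *Fat1* was higher by 0.23 ± 0.08 (adjusted p = 0.140) and *Fat4* by 0.26 ± 0.09 (adjusted p = 0.131), in each case with no overlap between the 3 samples with and the 3 without ligand.

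In shSrsf3 cells 0 of 27 members passed in edgeR in either direction, beside 0.426% of all tested genes that were higher and 0.140% that were lower. At an unadjusted p under 0.05, 4 members differed (14.8%, beside 9.44% of all tested genes), and DESeq2 called 0. *Pcdh9* had a log2 fold change like that in scramble cells (0.15 ± 0.04, adjusted p = 0.152), and its interaction of shRNA and ligand was -0.02 ± 0.06 (adjusted p = 0.968). *Pcdh1* had the largest fitted difference with ligand in these cells, at 2.63, 2.45 and 2.82 CPM without and 2.99, 4.03 and 3.44 CPM with ligand (0.41 ± 0.14, adjusted p = 0.329). No member passed the test of the interaction in edgeR with the filter on low counts (0 of 27, beside 0.0133% of all tested genes), and the smallest adjusted p was 0.874. At an unadjusted p under 0.05 there was 1 member, as were 5.54% of all tested genes. DESeq2 called 0, and edgeR with no filter called *Fat1*. For the 8 DE members the interaction lay between -0.20 ± 0.14 (*Cdh18*) and 0.49 ± 0.38 (*Cdh5*) on the log2 scale, with standard errors from 0.06 (*Pcdh9*) to 0.50 (*Dchs2*).

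**Figure D5:**
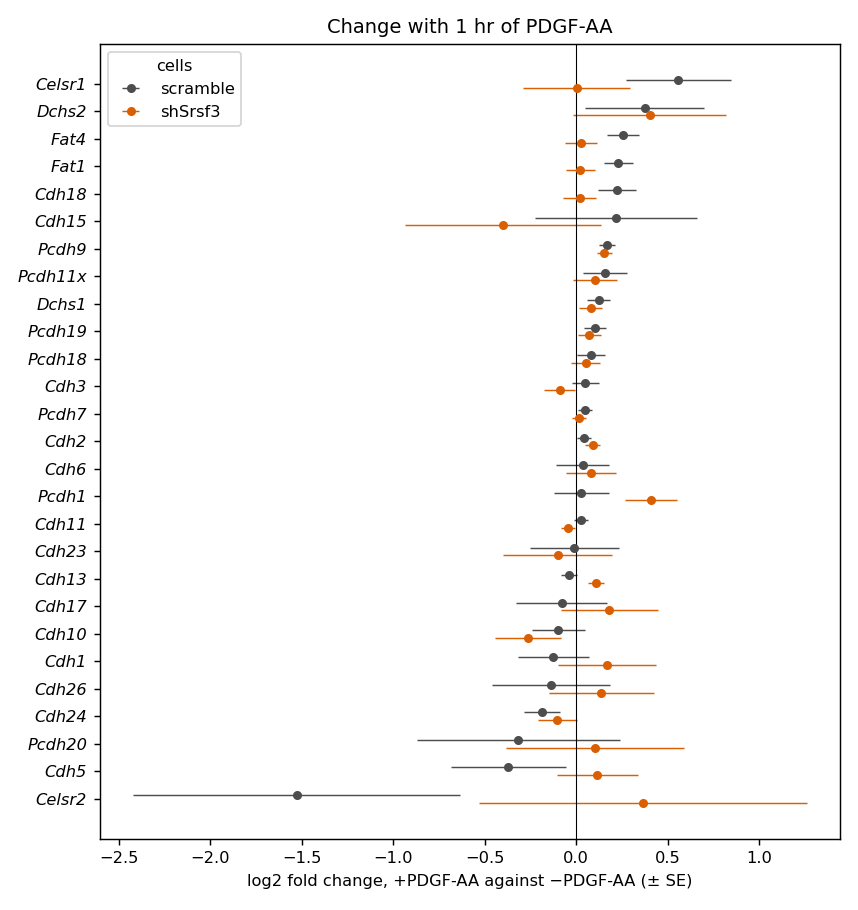
Log2 fold change of each tested member with 1 hr of PDGF-AA in scramble cells and in shSrsf3 cells, with standard errors as bars. Most values lie near zero in both lines, members with few counts such as *Celsr2* and *Cdh15* have wide bars, and *Pcdh9* has narrow bars at 0.17 and 0.15.

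The proteins that bind the cadherin tail were examined next, and then further lists of genes. Their counts of genes past the adjusted p stand beside 22.2% higher and 23.7% lower of all tested genes without ligand and 20.3% and 20.7% with ligand. Of 11 tested catenins and partners, 3 were higher and 4 lower in shSrsf3 cells without ligand, and 3 and 4 with ligand. *Ctnnd1*, which encodes p120-catenin, was lower (-0.48 ± 0.03 and -0.56 ± 0.03, adjusted p = 1.15e-07 and 3.08e-08), and *Ctnnb1*, which encodes β-catenin, was lower (-0.18 ± 0.04 and -0.26 ± 0.04, adjusted p = 0.00176 and 0.000120). *Ctnna2*, the αN-catenin gene, was the DE member of the list, at 18.9 CPM in scramble and 8.35 CPM in shSrsf3 cells without ligand (-1.18 ± 0.05, adjusted p = 1.79e-09) and at 20.1 and 7.81 CPM with ligand (-1.36 ± 0.06, adjusted p = 8.78e-10), while *Ctnna1*, the αE-catenin gene, was higher (0.17 ± 0.03, adjusted p = 0.000300, and 0.15 ± 0.03, adjusted p = 0.000979). The neural paralog of p120, *Ctnnd2*, was higher as well (0.92 ± 0.08 and 0.75 ± 0.08, adjusted p = 4.93e-07 and 3.87e-06). Of the nectins, adhesion molecules that work beside cadherins, *Nectin1* and *Nectin2* were higher in both comparisons (2 of 3 tested), and *Nectin3* passed in neither.

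Few desmosomal genes passed the filter, with the 5 genes *Dsg1a*, *Dsg1b*, *Dsg1c*, *Dsg2* and *Dsg4* at 0 in every sample and 3 of 13 tested. *Dsp* and *Pkp2* were higher and *Pkp1* was DE and lower, with log2 fold changes of -1.67 ± 0.28 and -1.35 ± 0.28 (adjusted p = 0.000284 and 0.00156). Of 5 other tested cadherin-repeat genes, 1 was higher and 2 were lower in both comparisons. *Cdhr1*, the photoreceptor cadherin, was at 14.6 CPM in scramble and 3.07 CPM in shSrsf3 cells without ligand (-2.24 ± 0.07, adjusted p = 4.23e-11) and at 14.9 and 3.21 CPM with ligand (-2.21 ± 0.07, adjusted p = 8.10e-11), *Ret* was lower, and *Cdhr4* was higher from 0.143 and 0.173 CPM (2.47 ± 0.42 and 2.21 ± 0.41, adjusted p = 0.000358 and 0.000698). These scramble means of *Cdhr4* lay under the filter's 0.198 CPM, so its shSrsf3 samples carried it through the filter. Among 12 tested partners of the Fat, Dachsous and planar polarity pathways, 2 were higher and 4 lower without ligand and 2 and 3 with ligand. *Fjx1*, whose product is the kinase that modifies Fat and Dachsous repeats, was lower (-0.41 ± 0.06, adjusted p = 0.000126, and -0.36 ± 0.06, adjusted p = 0.000483). The DE genes of this list were *Fzd3*, a Frizzled receptor of planar polarity (-1.09 ± 0.10, adjusted p = 1.51e-06, and -1.23 ± 0.11, adjusted p = 8.24e-07), and *Lix1* (-1.95 ± 0.50, adjusted p = 0.00617, and -2.72 ± 0.66, adjusted p = 0.00449). *Lix1* was at 0.311 and 0.275 CPM in scramble cells and at 0.0896 and 0.0403 CPM in shSrsf3 cells without and with ligand. Its shSrsf3 means lay under the filter's 0.198 CPM, so its scramble samples carried it through the filter.

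Transcription factors known to repress *Cdh1* or to switch cadherins moved in both directions. Of 9 tested, 2 were higher and 3 lower in each comparison. *Snai1*, the Snail repressor of *Cdh1*, was at 133 CPM in scramble and 76.7 CPM in shSrsf3 cells without ligand (-0.79 ± 0.08, adjusted p = 2.66e-06) and at 184 and 112 CPM with ligand (-0.72 ± 0.08, adjusted p = 6.70e-06). *Zeb1* (-0.30 ± 0.04 and -0.23 ± 0.04, adjusted p = 8.93e-05 and 0.000901) and *Tcf4* (-0.47 ± 0.04 and -0.41 ± 0.04, adjusted p = 3.47e-07 and 1.46e-06) were lower as *Cdh1* was, and *Twist2* was higher (0.55 ± 0.06 and 0.58 ± 0.06, adjusted p = 1.23e-05 and 8.57e-06). *Snai3*, the other member that was higher, was DE from 0.0767 and 0.116 CPM (2.20 ± 0.42 and 1.13 ± 0.42, adjusted p = 0.000764 and 0.0441). These scramble means lay under the filter's 0.198 CPM, so its shSrsf3 samples carried *Snai3* through the filter. Of the 10 tested proteases that process or cleave cadherins, 1 was higher and 4 lower without ligand and 2 and 3 with ligand. None was DE, and *Adam10*, the main sheddase of E- and N-cadherin, was lower (-0.26 ± 0.03 and -0.21 ± 0.03, adjusted p = 4.03e-05 and 0.000275).

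The lists of cell type markers were examined last. Of 11 markers of palatal mesenchyme, 1 was higher and 6 lower without ligand and 1 and 4 with ligand, with *Msx1* DE and lower with ligand (-1.10 ± 0.21, adjusted p = 0.000878). For skeletal muscle, *Myod1* and *Pax7* were at 0 in every sample, and 2 of the 6 genes on the list were tested. *Des* was DE and higher (1.21 ± 0.40, adjusted p = 0.0248, and 1.34 ± 0.39, adjusted p = 0.0134), with 4 to 32 counts per sample. Its scramble means of 0.148 and 0.173 CPM lay under the filter's 0.198 CPM. *Acta1*, at group means from 24.3 to 30.4 CPM, was higher without ligand (0.32 ± 0.04, adjusted p = 4e-05). With ligand *Acta1* did not pass the adjusted p (-0.05 ± 0.04, adjusted p = 0.423). For neural and glial cells, where *Cdh10*, *Cdh18* and *Pcdh9* are best known, *Sox10*, *Sox2* and *Elavl4* were at 0 in every sample, *Tubb3* was lower and *Stmn2* was DE and higher (1.12 ± 0.29, adjusted p = 0.00634, and 1.01 ± 0.29, adjusted p = 0.0120). The list summed to 29.5 to 30.8 CPM in scramble and 21.6 to 22.2 CPM in shSrsf3 samples without ligand and to 32.0 to 32.9 and 22.7 to 26.8 CPM with ligand, most of it from *Tubb3*, and its part in the results was not tested. The 5 markers of immune cells summed to between 1.25 and 2.44 CPM, and 0 of the 2 tested passed in edgeR in either comparison.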

How the data were processed

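Poly(A) RNA from 12 samples in 4 groups of 3 was sequenced on stranded libraries. The authors quantified reads with Salmon 1.4.0 on GENCODE M26 transcripts of GRCm39 and summed them to genes with tximport, and they deposited the resulting estimated counts per gene (expected counts, not normalized), of which 16.3% were not whole. Whether tximport scaled them is not given in the sources used here. All 12 columns were mapped to samples by title.

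Counts were rounded to whole numbers and tested with edgeR 4.0.16 (R 4.3.3) by the quasi-likelihood test with TMM scaling, a filter of at least 10 counts, 4 group means and all 12 samples, and Benjamini-Hochberg adjustment over 15037 genes. DE means an adjusted p of 0.05 or less and at least 2-fold, the rule the authors used with DESeq2 1.32.0. In simulated data with known fold changes the test was checked before use. Alternatives, 19 in all, were RLE scaling, DESeq2 1.42.0, no filter, a filter of 50 counts, the replicate number as a block, each library left out, the 3 libraries of low mapping rate left out, and libraries thinned to the smallest total. Same-numbered samples did not deviate together (18 pairs, r from -0.142 to 0.201), so the numbers were not taken as pairs.

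Levels between genes were compared as CPM per kb of the Ensembl canonical transcript (GENCODE M39, GRCm39). The members, their classes and the gene lists were chosen with earlier results of these data known. Named with values were members DE in either shRNA comparison, all tested type I, Fat, Dachsous and Celsr members, the 10 highest per length, members past the adjusted p in a comparison of +PDGF-AA with -PDGF-AA, and list genes that were DE, of which 1 is not reported here. Cdh6, Pcdh1, Pcdh20, further list genes and the members given only by counts were added after their values were seen. At these depths 3 counts, the floor used for a count of 0, equal less than 0.1 CPM in every library.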

Additional observations from a re-analysis of the deposited data

How the results depend on the processing

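The counts of DE members stayed at 7 to 8 without and 7 to 9 with ligand under the 19 alternatives, and the counts past the adjusted p at 15 to 18 without and 14 to 18 with ligand. Leaving out a library gave 8 DE members in every case without ligand and 7 to 9 with ligand, 15 to 17 and 14 to 18 past the adjusted p, 0 to 3 for the ligand in scramble cells, and 0 for the ligand in shSrsf3 cells and for the interaction. The 1 call for the ligand in scramble cells became 3 in DESeq2 and 3 with no filter, which added Fat1 and Fat4, and 0 in thinned libraries and 0 without the 3 libraries of low mapping rate, which leaves 1 scramble sample without ligand and so no replicate check there. With no filter, 1 member, Fat1, passed the interaction. The cause of these shifts was not tested.

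With the replicate block, used although the numbers did not pair the samples, 8 and 9 members were DE (Pcdh20 was added with ligand) and 18 and 17 passed the adjusted p, Pcdh19 without ligand (0.13, adjusted p = 0.0461) being added. Of 803 values of single members under the alternatives, 759 kept direction and side of the threshold. The 9 that turned direction all concerned the shRNA comparison without ligand, for 3 members that did not pass its adjusted p. For Cdh15 without ligand (leaving out a library gave -0.59 to 0.40) they were 0.0042 (without the 3 libraries of low mapping rate), 0.40 (without scramble -PDGF-AA replicate 2) and 8.49e-05 (without shSrsf3 -PDGF-AA replicate 2). For Celsr2 (-1.25 to 1.11 over all settings) they were 1.11 (without the 3 libraries) and 0.19 (without scramble -PDGF-AA replicate 1). For Fat4 (leaving out a library gave -0.0526 to 0.0690) they were -0.0979 (without the 3 libraries), -0.0127 (thinned), -0.0526 (without scramble -PDGF-AA replicate 2) and -0.0498 (without shSrsf3 -PDGF-AA replicate 3).

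Depth limits the members with fewer than 50 counts in at least 1 sample (Cdh1, Cdh5, Cdh15, Cdh17, Cdh23, Cdh26, Celsr1, Celsr2, Dchs2, Pcdh20). With a filter of 50 counts, 21 members were tested in place of 27, and Dchs2 was the DE member left out. Cdh5 and Cdh26 had fewer than 50 counts in every scramble sample, so their shSrsf3 samples carried them through that filter.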
